A study of Mus musculus with 14 samples.

Results

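The 38 genes described here are macrophage and antigen-presenting cell genes chosen by symbol from a list, and all of them were found among the 55471 genes of the count table. They cover macrophage identity and adhesion, the CSF1 growth factor and its receptor, Fc receptors and their signalling adapters, scavenger receptors of resident macrophages, complement C1q, genes of lipid-associated macrophages, co-stimulation, chemokines and major histocompatibility complex (MHC) class II. All 38 were among the 15949 genes that passed the filter on low counts.

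RNA was sequenced from whole brown adipose tissue (BAT), the heat-producing fat depot, of male mice 10 weeks old. The groups were AdC3KO mice at 4 °C (4 libraries), AdC3KO mice at 30 °C (3 libraries), wild-type (WT) mice at 4 °C (4 libraries) and WT mice at 30 °C (3 libraries). AdC3KO denotes a knockout of CLSTN3B, a product of the Clstn3 locus, that is restricted to adipocytes; which Cre line and allele were used is not stated in the labels. By the labels, every mouse had spent 2 weeks at 30 °C, which is thermoneutral for mice, and the 4 °C groups were then kept in the cold for 6 h. The labels do not describe the locus in other cell types of the tissue.

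Macrophages of fat tissue engulf dying cells and debris, handle lipid released by adipocytes and present antigen. In brown fat they lie among adipocytes, vessels and sympathetic nerve fibres, and cold exposure changes the activity of all of these. MHC class II molecules are made by macrophages, dendritic cells and B cells. They display peptides to helper T cells, and the invariant chain Cd74 and the protease cathepsin S (Ctss) prepare them for loading.

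Gene counts came to 19.9 M to 29.03 M per library (M, 1e6 counts), of which the 38 genes took 13487 to 55240. Levels are given as counts per M (CPM) after scaling of library sizes by TMM, whose factors were 0.822 to 0.954 at 4 °C and 1.11 to 1.21 at 30 °C. Clstn3 itself was at 53.8 to 77.9 CPM in AdC3KO and 970 to 1195 CPM in WT at 4 °C, and at 14.8 to 17.3 CPM in AdC3KO and 182 to 228 CPM in WT at 30 °C. Whether every library came from its own mouse is not stated, and the p-values refer only to the scatter among these libraries, which may in part be technical. Skeletal muscle transcripts were present in 5 libraries, AdC3KO 4 °C library 3, WT 4 °C library 2, AdC3KO 30 °C libraries 1 and 2 and WT 30 °C library 3 (summed level of 7 markers 25.8 to 369 CPM, against 0.732 to 3.12 CPM in the others).

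A pair of libraries stood apart from their groups in these genes, AdC3KO 4 °C library 1 and WT 4 °C library 4. Each was the highest library of its group for 26 of the 38 genes, whereas AdC3KO 4 °C library 1 was the highest for 21.6% and WT 4 °C library 4 for 29.3% of all tested genes. Its median level relative to the mean of the other libraries of the group was 1.78 over the 38 genes in AdC3KO 4 °C library 1 and 2.16 in WT 4 °C library 4, against 0.981 and 0.991 over all tested genes. The summed level of the 38 genes was 1354, 712, 707 and 677 CPM in the AdC3KO libraries at 4 °C and 649, 663 and 498 CPM at 30 °C. In WT it was 842, 868, 881 and 2252 CPM at 4 °C and 640.3, 573 and 517 CPM at 30 °C. Apart from this pair, the 4 °C sums lay close together within each genotype, with the AdC3KO sums below the WT sums. The pair was picked for high levels of these genes, so this closeness and this order follow in part from that choice. AdC3KO 4 °C library 1, at 1354 CPM, lay above the WT sums of 842, 868 and 881 CPM. Nothing about genotype is drawn from the order.

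The same pair was highest at 4 °C in other lists. A list of 14 interferon response genes summed to 486, 263, 179 and 103 CPM in AdC3KO and to 99.9, 187, 153 and 1506 CPM in WT at 4 °C. An MHC class I list of 8 genes summed to 2696, 1313, 1226 and 1126 CPM in AdC3KO and to 1236, 1169, 1354 and 4617 CPM in WT. The T cell marker list summed to 10.7, 2.67, 2.88 and 1.897 CPM in AdC3KO and 1.89, 2.99, 2.33 and 18.2 CPM in WT. The natural killer cell list was at 3.58, 0.689, 0.538 and 0.674 CPM in AdC3KO and 0.354, 1.52, 0.997 and 14.6 CPM in WT. Each of these lists was highest of its group in AdC3KO 4 °C library 1 and in WT 4 °C library 4, while the endothelial marker list was not highest in AdC3KO 4 °C library 1 (1337, 1435, 1519 and 1223 CPM in AdC3KO and 1217, 1149, 1275 and 1299 CPM in WT). What set these libraries apart was not tested. The pair was identified by its levels of immune genes, the 38 among them, and a fit without it therefore has a spread that this choice narrowed.

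**Figure D1:**
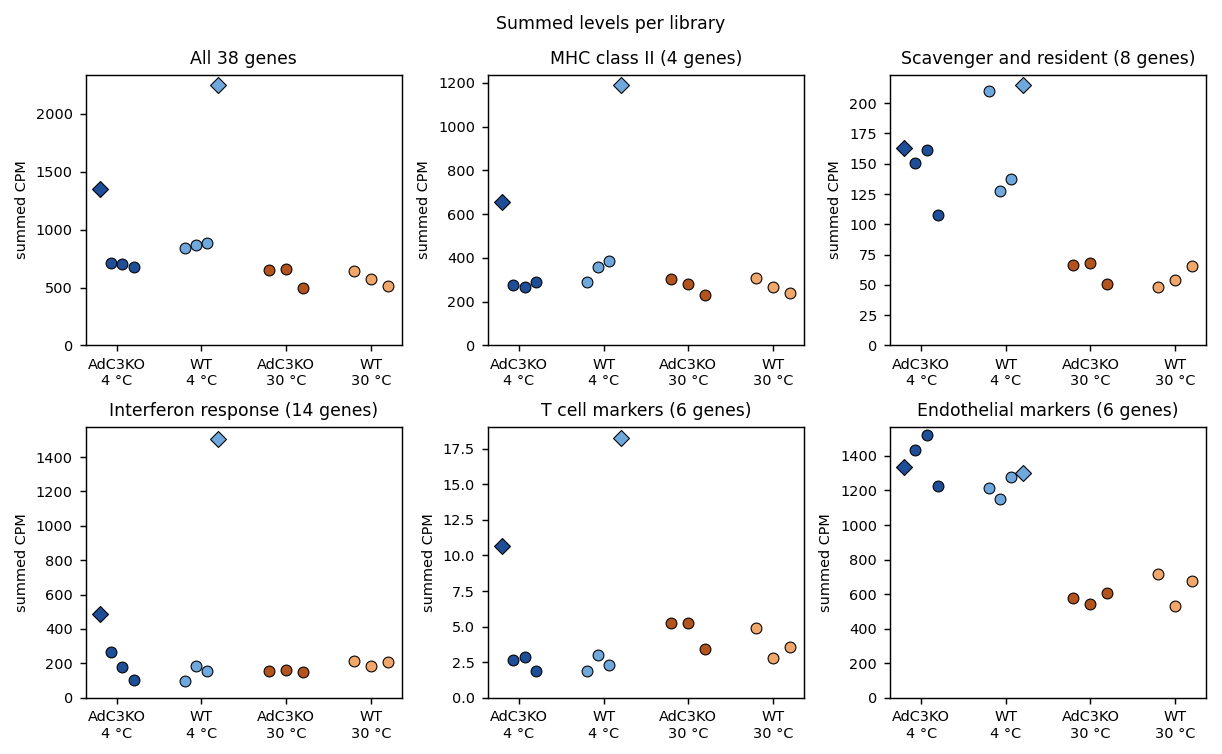
Summed CPM of 6 gene lists (y axis) in each library, by genotype and temperature (x axis); each point is 1 library, and diamonds mark AdC3KO 4 °C library 1 and WT 4 °C library 4. The diamonds lie above the other 4 °C libraries of their group for all 38 genes, MHC class II, interferon response and T cell markers, with 1354 CPM and 2252 CPM over all 38 genes.

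MHC class II genes showed this split. Cd74, the invariant chain, was at 201, 76.9, 79.3 and 86.9 CPM in AdC3KO at 4 °C and at 81.7, 112, 122 and 369.7 CPM in WT at 4 °C. H2-Ab1, a beta chain, was at 129.96, 49.3, 48.9 and 50.9 CPM in AdC3KO and at 54.9, 68.02, 69.8 and 255 CPM in WT at 4 °C, and its alpha chain partner H2-Aa at 147, 59.8, 56.7 and 60.8 CPM in AdC3KO and 68.5, 74.9, 78.6 and 267 CPM in WT. In each gene 1 library per genotype stood well above the other 3, which lay closer together in AdC3KO than in WT. The promoters of MHC class II genes carry conserved X and Y boxes, at which the RFX and NF-Y complexes bind and recruit the coactivator CIITA. Promoter windows from RefSeq (GRCm38.p6, 250 bases before to 50 after the start) were at hand for 26 of the 38 genes, in 28 windows. H2-Ab1 was among the genes without a window, so its promoter was not searched. The windows at hand were used as follows. They were searched on both strands for a Y box core (CTGATTGG), an X box part (AACNGATG) and a core of sites bound by the myeloid factor PU.1 (GAGGAAGT), and no match of one motif overlapped a match of another. The MHC class II genes whose windows hold a Y box core are shown by the 150 bases before their start, 5′ to 3′ on the gene's strand, with matches in capitals.
H2-Eb1 (chr17:34305717-34305866, plus strand): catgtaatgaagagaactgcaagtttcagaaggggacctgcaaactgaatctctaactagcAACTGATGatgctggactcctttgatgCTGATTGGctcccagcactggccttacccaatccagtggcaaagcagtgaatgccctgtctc
H2-Aa (chr17:34287824-34287973, minus strand): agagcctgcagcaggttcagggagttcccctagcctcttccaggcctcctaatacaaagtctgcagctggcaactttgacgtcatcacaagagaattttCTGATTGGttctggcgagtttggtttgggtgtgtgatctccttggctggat
The Y box core began 62 bases before the start in H2-Eb1 and 51 bases before it in H2-Aa, and 4.1% of all 32851 promoter windows hold it. H2-Eb1 also held the X box part, 89 bases before the start, as did Ctss at 207 bases; 2.32% of windows hold it. The PU.1 core was found in Ctss, 2 bases before the start, and in C1qc, 195 bases before it, and in 3.2% of all windows. A match describes these letters and is no evidence of binding.

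The markers that define the list were present in every library. Adgre1 encodes F4/80, a surface receptor of mature macrophages. It was at 14.2, 4.39, 3.32 and 6.03 CPM in AdC3KO at 4 °C and 7.56, 19.5 and 4.097 CPM at 30 °C, and at 4.77, 8.23, 8.97 and 21.6 CPM in WT at 4 °C and 5.63, 4.47 and 7.42 CPM at 30 °C. The groups overlapped in every comparison, AdC3KO 30 °C library 2 was higher than every AdC3KO library in the cold, and no test passed the threshold. Its cold difference was -0.56 ± 0.65 on the log2 scale in AdC3KO (SE, adjusted p = 0.473) and 0.91 ± 0.67 in WT (adjusted p = 0.264); the AdC3KO value was 0.27 without AdC3KO 30 °C library 2 and -1.15 without AdC3KO 4 °C library 1, and neither passed. Cd68, a lysosomal glycoprotein abundant in phagocytes, was at 10.03, 10.9, 6.16 and 7.92 CPM in AdC3KO at 4 °C and 4.45, 3.57 and 4.25 CPM at 30 °C. WT libraries held 8.84, 11.4, 10.4 and 17.3 CPM at 4 °C and 9.03, 6.74 and 3.62 CPM at 30 °C. Every AdC3KO library in the cold was above every AdC3KO library at 30 °C, while the WT groups overlapped through WT 30 °C library 1. Cd68 rose in the cold in AdC3KO, by 1.10 ± 0.30 (adjusted p = 0.00459), and in WT, by 0.89 ± 0.29 (adjusted p = 0.0149). The WT call was lost without WT 30 °C library 3 (log2 fold change 0.61, adjusted p = 0.0688), with upper-quartile scaling, with no filter on low counts and without the libraries with muscle transcripts. In bulk tissue, more cells of a type and more RNA of a gene per cell cannot be told apart, and this holds for every value here.

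Calls among the 38 genes came from the cold comparisons. In AdC3KO, 12 of the 38 genes were higher at 4 °C than at 30 °C and 1 was lower by the quasi-likelihood F-test of edgeR, adjusted by the Benjamini-Hochberg method over all 15949 genes at 0.05. Of all tested genes 31% were called higher and 32.1% lower, so the share of members called higher was near that of all genes. In WT, 19 were higher and 1 was lower, against 30.6% and 30.8% of all tested genes. The median log2 fold change of the 38 genes was 0.47 in AdC3KO and 1.06 in WT, where that of all tested genes was -0.06 in AdC3KO and -0.03 in WT. Libraries did not overlap, with 4 °C above 30 °C, for 14 genes in AdC3KO (30.9% of all genes) and 16 in WT (29.9%). They lay wholly below for 1 gene in each genotype (33.2% of all genes in AdC3KO and 30.4% in WT). The cold comparisons of AdC3KO and WT share no library. All 12 genes called higher in AdC3KO were among the 19 called in WT, which is 100% of the AdC3KO calls and 63.2% of the WT calls. For all tested genes the shares were 89.99% of AdC3KO calls and 91.1% of WT calls. The 7 genes called in WT alone were Mertk, Cd80, C1qa, C1qc, Fcgr1, Ctss and H2-Eb1, and the interaction test made no call among them. Leaving out WT 30 °C library 3 brought the WT count to 11 higher and 2 lower (27.6% and 27.5% of the 16357 genes then tested), and leaving out AdC3KO 30 °C library 3 brought the AdC3KO count to 8 higher and 1 lower (28.2% and 28.8% of 16392).

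Without the pair of libraries that stood apart, 14 genes were higher and 3 lower in AdC3KO (32.1% and 32.2% of 15731 tested genes), and 20 were higher and 1 lower in WT (30.6% and 31.7%). The median was then 0.31 in AdC3KO and 0.55 in WT, and every gene called in WT with all libraries was still called. Fcgr1, Siglec1 and H2-Eb1 gained a call as higher in AdC3KO, Csf1r and Ccr2 gained one as lower, and Gpnmb lost its call. In WT, H2-Aa gained a call. None of these gained calls was made when only AdC3KO 4 °C library 1, for AdC3KO, or only WT 4 °C library 4, for WT, was left out. Upper-quartile scaling, which moved the median of all genes by -0.23 in AdC3KO and -0.24 in WT, called 7 genes higher and 2 lower in AdC3KO (23.4% and 41% of all tested genes) and 12 higher and 2 lower in WT (22.8% and 40.2%). The share of higher among all calls was 36.4% in AdC3KO and 36.2% in WT under that scaling, against 49.1% and 49.9% under TMM. Without any library with muscle transcripts, 8 genes were higher and 0 lower in AdC3KO (19.5% and 19.3% of the 16950 genes then tested), and 11 were higher and 2 lower in WT (24.4% and 23%). That setting leaves a single AdC3KO library at 30 °C, which is assumed to vary like the other groups.

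**Figure D2:**
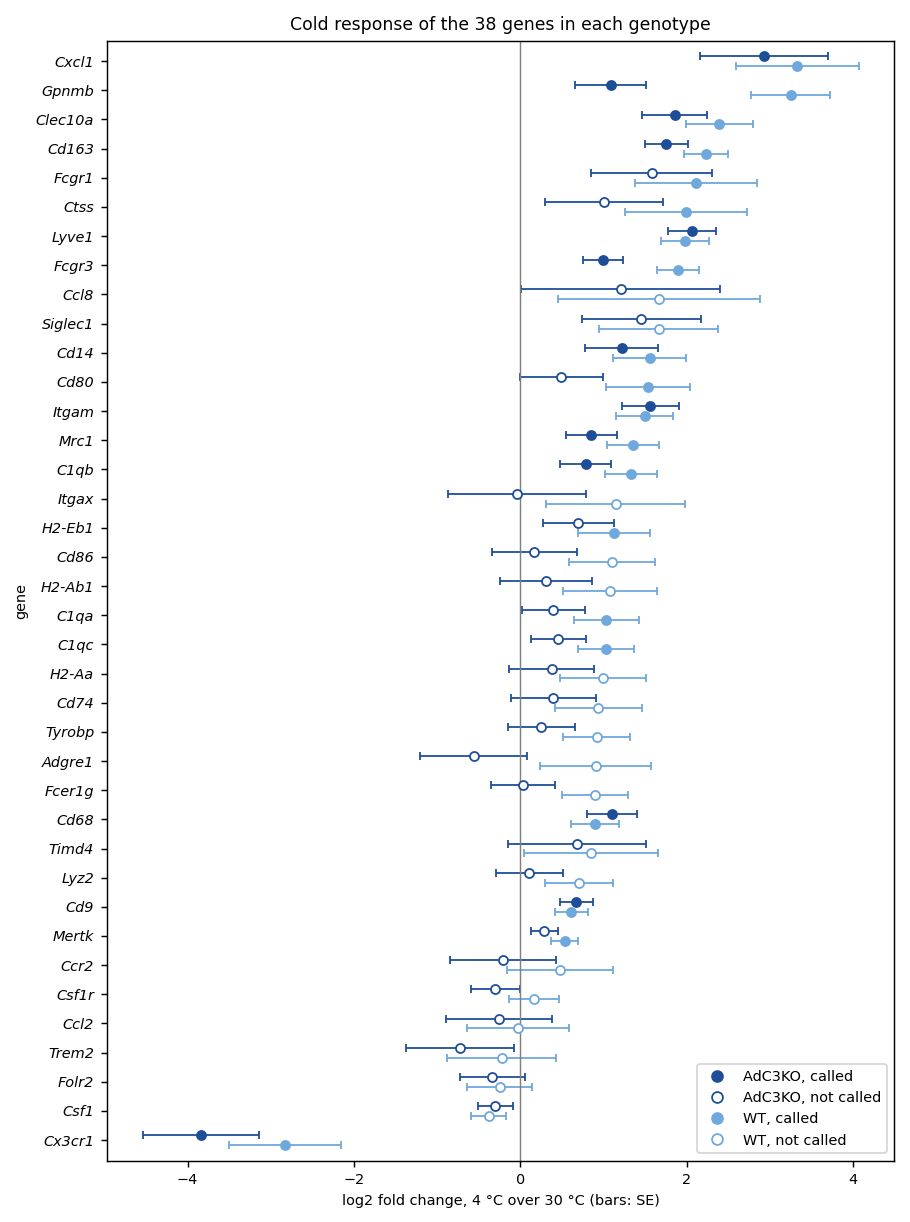
Log2 fold change at 4 °C over 30 °C (x axis) of each of the 38 genes (y axis) in AdC3KO and WT, with bars of 1 SE; filled points passed an adjusted p of 0.05. Most points lie right of 0, from 3.33 for Cxcl1 in WT down to -3.84 for Cx3cr1 in AdC3KO.

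Among scavenger and uptake receptors of resident macrophages, 4 of 8 were called higher in AdC3KO and 5 of 8 in WT, where 31% of all tested genes were called higher in AdC3KO and 30.6% in WT. Cd163, the receptor for haemoglobin bound to haptoglobin, was at 51.8, 41.2, 55.6 and 39.2 CPM in AdC3KO at 4 °C and 14.9, 13.7 and 12.96 CPM at 30 °C. WT libraries held 72.3, 40.1, 41.97 and 68.3 CPM at 4 °C and 8.28, 10.7 and 16.4 CPM at 30 °C. All cold libraries lay at 39.2 CPM or above and all 30 °C libraries at 16.4 CPM or below. The rise was 1.76 ± 0.26 on the log2 scale in AdC3KO (SE, adjusted p = 5.07e-05) and 2.23 ± 0.27 in WT (adjusted p = 7.17e-06), or 3.38-fold in AdC3KO and 4.697-fold in WT. Cd163 lies on chromosome 6, 100.2 kb from Clstn3, and did not pass the test between genotypes at either temperature. Lyve1, a hyaluronan receptor of perivascular macrophages and of lymphatic vessels, was at 19.7, 18.6, 13.9 and 14.2 CPM in AdC3KO at 4 °C and 4.25, 4.54 and 3.101 CPM at 30 °C. In WT it was at 26.2, 14.7, 9.78 and 22.6 CPM at 4 °C and 4.56, 5.19 and 4.15 CPM at 30 °C. Again the temperatures did not overlap, and Lyve1 rose by 2.06 ± 0.29 in AdC3KO (adjusted p = 1.98e-05) and 1.98 ± 0.29 in WT (adjusted p = 2.87e-05). Of the lymphatic vessel markers Prox1, Flt4, Pdpn and Ccl21a, 3 were tested. Flt4 rose in both genotypes, by 0.72 in AdC3KO and 0.65 in WT, Prox1 rose in WT (2.21) and was at 1.49 in AdC3KO (adjusted p = 0.074), and Ccl21a had 0 counts in every library. Pdpn was not called, at -0.02 in AdC3KO (adjusted p = 0.969) and 0.70 in WT (adjusted p = 0.158). Their part in the Lyve1 result was not tested.

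Clec10a, a lectin that binds galactose-type sugars, was at 20.4, 18.3, 24.1 and 8.26 CPM in AdC3KO at 4 °C and 4.55, 6.51 and 3.69 CPM at 30 °C. In WT libraries its level was 19.8, 13.7, 16.6 and 28.5 CPM at 4 °C and 2.28, 3.75 and 5.17 CPM at 30 °C. All cold libraries lay above all 30 °C libraries, and AdC3KO 4 °C library 4 was the lowest of them. Clec10a rose by 1.85 ± 0.39 in AdC3KO (adjusted p = 0.00106) and 2.39 ± 0.40 in WT (adjusted p = 0.000196). Mrc1, the mannose receptor, was at 36.5, 42.5, 46.9 and 24.7 CPM in AdC3KO at 4 °C and 21.4, 26.6 and 14.4 CPM at 30 °C, and at 72.4, 29.2, 39.03 and 45.3 CPM in WT at 4 °C and 15.4, 19.2 and 19.9 CPM at 30 °C. The WT groups were apart and the AdC3KO groups overlapped by a narrow margin. Its rise was 0.85 ± 0.31 in AdC3KO (adjusted p = 0.0283) and 1.35 ± 0.31 in WT (adjusted p = 0.00237). The AdC3KO call was lost in 6 of 23 alternatives, among them the removal of AdC3KO 30 °C library 1 or 3 or of AdC3KO 4 °C library 2 or 3 (adjusted p 0.0563 to 0.114, log2 fold change 0.65 to 0.88), upper-quartile scaling and no filter on low counts. Mertk, a kinase receptor for engulfing dying cells, rose in WT by 0.53 ± 0.16 (adjusted p = 0.01) and was at 0.28 ± 0.16 in AdC3KO (adjusted p = 0.138). The WT call was lost without WT 30 °C library 2 (log2 fold change 0.44, adjusted p = 0.0559) and with upper-quartile scaling.

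The other resident receptors were not called by edgeR with all libraries. Siglec1, the sialic acid receptor of sentinel macrophages, was at 16.9, 8.05, 4.84 and 4.34 CPM in AdC3KO at 4 °C, where all libraries lay above the AdC3KO libraries at 30 °C (3.96, 3.198 and 2.18 CPM). Its difference was 1.46 ± 0.72 (adjusted p = 0.0979) with all libraries and 0.91 without the pair that stood apart (adjusted p = 0.0311). In WT, Siglec1 was at 1.66 ± 0.72 (adjusted p = 0.0633); DESeq2 called it higher (adjusted p = 0.0326), and by edgeR it was at 0.71 without WT 4 °C library 4 (adjusted p = 0.241). Timd4, a receptor for phosphatidylserine on embryonically seeded macrophages, was at 0.68 in AdC3KO and 0.85 in WT. Its WT value was -0.33 without WT 4 °C library 4, and its AdC3KO value 1.51 without AdC3KO 30 °C library 2. Folr2, a folate receptor, was at -0.34 in AdC3KO and -0.25 in WT. Both genes were low, with the highest library at 2.85 CPM for Timd4 and 0.994 CPM for Folr2, and 63.1% of the exon bases of Folr2 overlap the gene Gm10602 on the other strand, whose reads cannot be told apart without a stated strand setting.

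**Figure D3:**
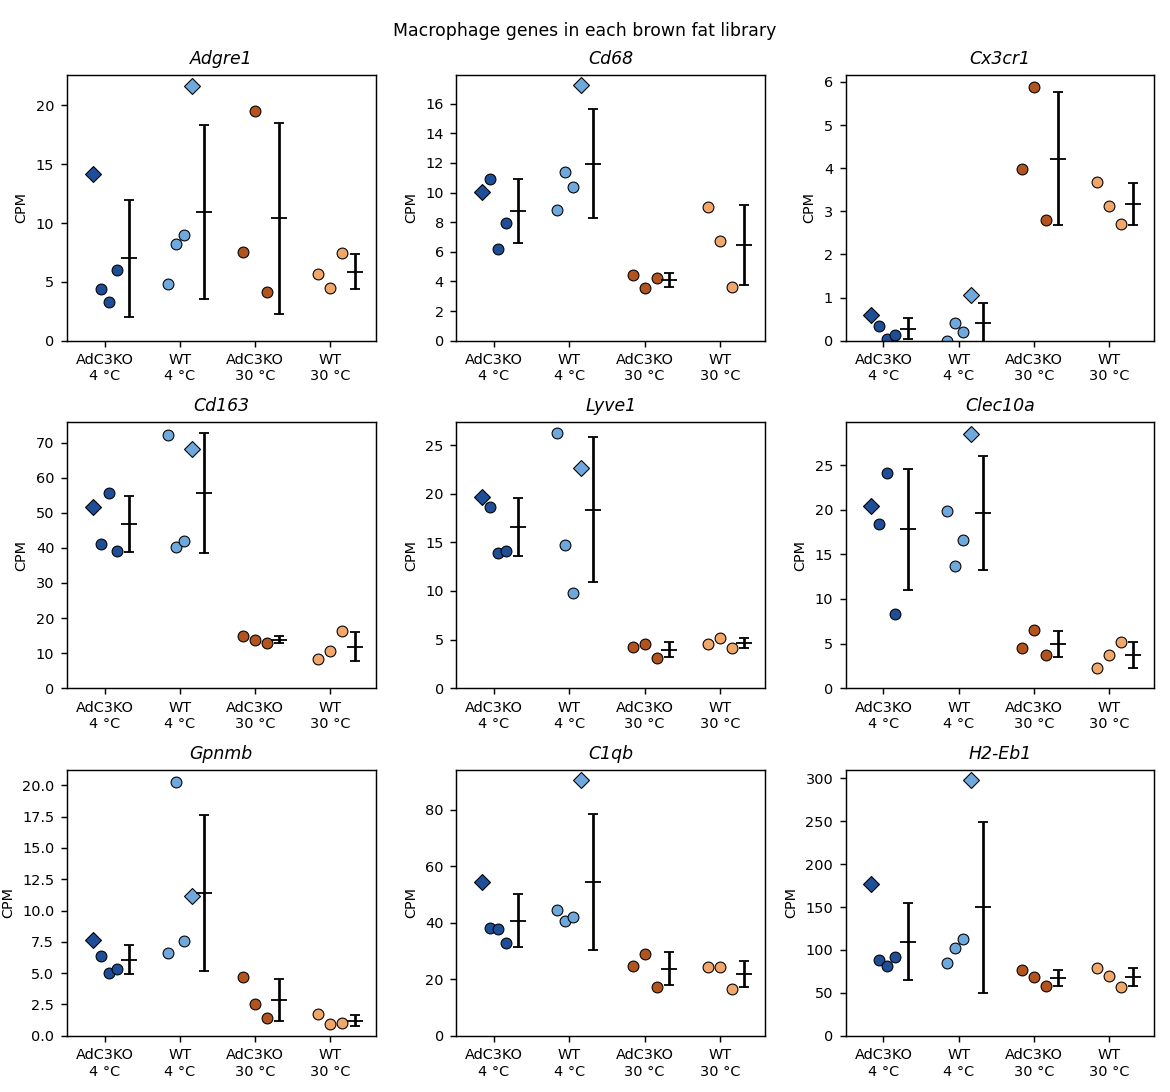
CPM (y axis) of 9 of the genes in each library, by genotype and temperature (x axis); each point is 1 library, bars give the mean and SD and are cut at 0, and diamonds mark AdC3KO 4 °C library 1 and WT 4 °C library 4. Cd163, Lyve1 and Clec10a are higher and Cx3cr1 lower in every 4 °C library than in any 30 °C library, whereas Adgre1 groups overlap.

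Of the remaining identity genes, Itgam (CD11b, an integrin of myeloid cells) was at 6.26, 4.65, 4.84 and 2.61 CPM in AdC3KO at 4 °C and 1.21, 2.53 and 0.923 CPM at 30 °C. WT libraries held 5.72, 4.61, 4.94 and 7.09 CPM at 4 °C and 2.44, 1.996 and 1.51 CPM at 30 °C. The temperatures did not overlap in either genotype, by a small margin in AdC3KO. Itgam rose by 1.56 ± 0.35 in AdC3KO (adjusted p = 0.000915) and 1.497 ± 0.34 in WT (adjusted p = 0.00125); 68.7% of its exon bases overlap Gm49368 on the same strand, so the counting may have split its reads. Ctss was at 59.3, 22.8, 15.004 and 17.4 CPM in AdC3KO at 4 °C and 14.9, 17.1 and 10.9 CPM at 30 °C, and at 16.9, 32.1, 26.6 and 123 CPM in WT at 4 °C and 16.9, 11.02 and 9.82 CPM at 30 °C. Its groups overlapped in both genotypes, with WT 4 °C library 4 far above the rest. Ctss rose in WT by 1.99 ± 0.73 (adjusted p = 0.0357) and was at 1.01 ± 0.71 in AdC3KO (adjusted p = 0.238), where it was 0.39 without AdC3KO 4 °C library 1. Without WT 4 °C library 4 the WT value was 1.01 and the call was lost (adjusted p = 0.11), and it was also lost without any 1 of the WT 30 °C libraries, 9 of 23 alternatives in all. Without both libraries that stood apart it was 1.01 and called (adjusted p = 0.00569). Itgax, the integrin CD11c of dendritic cells and some macrophages, was at -0.04 in AdC3KO and 1.15 in WT, and Lyz2, a lysozyme of myeloid cells that may share reads with Lyz1, at 0.11 in AdC3KO and 0.70 in WT; neither passed the test. The WT value of Itgax was -0.02 without WT 4 °C library 4 and 1.83 without WT 30 °C library 1, and the AdC3KO value was -0.70 without AdC3KO 4 °C library 1, again with no call.

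Csf1, the growth factor that keeps macrophages alive, and its receptor Csf1r passed no test in the cold with all libraries. Csf1 was at 10.7, 12.1, 12.5 and 9.82 CPM in AdC3KO at 4 °C and 12.3, 17.7 and 11.7 CPM at 30 °C, and at 12.5, 13.2, 9.401 and 14.1 CPM in WT at 4 °C and 22.1, 14.7 and 11.3 CPM at 30 °C. Csf1r was at 26.5, 14.04, 11.97 and 16.7 CPM in AdC3KO at 4 °C and 22.2, 23.1 and 18.97 CPM at 30 °C. WT libraries had 13.6, 21.5, 18.4 and 35.1 CPM of Csf1r at 4 °C and 20.5, 18.2 and 20.7 CPM at 30 °C. The groups overlapped for both genes, and the 3 AdC3KO cold libraries other than library 1 were below all AdC3KO 30 °C libraries for Csf1r. The cold difference of Csf1 was -0.30 ± 0.21 in AdC3KO (adjusted p = 0.219) and -0.38 ± 0.21 in WT (adjusted p = 0.123). That of Csf1r was -0.30 ± 0.29 in AdC3KO (adjusted p = 0.387) and 0.17 ± 0.30 in WT (adjusted p = 0.652). Without the pair that stood apart Csf1r was called lower in AdC3KO, at -0.56 (adjusted p = 0.00771), and was at -0.14 in WT (adjusted p = 0.48). With upper-quartile scaling Csf1 was called lower in both genotypes, at -0.54 in AdC3KO (adjusted p = 0.0373) and -0.63 in WT (adjusted p = 0.0173). Il34, the other known ligand of the receptor, fell by 0.93 in AdC3KO and 0.99 in WT.

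Fc receptors bind antibody-coated particles. Fcgr3 was at 17.8, 9.47, 13.5 and 11.3 CPM in AdC3KO at 4 °C and 7.23, 6.58 and 5.87 CPM at 30 °C. WT libraries held 16.7, 12.7, 17.1 and 26.99 CPM at 4 °C and 5.47, 5.03 and 4.36 CPM at 30 °C. All cold libraries were above all 30 °C libraries, and at 30 °C each AdC3KO library was above each WT library. Fcgr3 rose by 0.99 ± 0.24 in AdC3KO (adjusted p = 0.00202) and 1.90 ± 0.25 in WT (adjusted p = 7.89e-06). The related gene Fcgr2b, the inhibitory Fc receptor, with which it may share reads, rose by 0.99 in AdC3KO and 1.80 in WT. Fcgr1, the high-affinity receptor, was at 10.03, 4.31, 3.18 and 2.07 CPM in AdC3KO at 4 °C and 1.995, 1.897 and 1.03 CPM at 30 °C, and at 3.54, 3.83, 4.51 and 19.9 CPM in WT at 4 °C and 1.74, 2.67 and 1.16 CPM at 30 °C. The temperatures did not overlap in either genotype, and the library that stood apart was more than 2-fold above the others in each. Fcgr1 rose in WT by 2.11 ± 0.73 (adjusted p = 0.0251) and was at 1.58 ± 0.73 in AdC3KO (adjusted p = 0.0767). The WT value was 1.11 without WT 4 °C library 4 (adjusted p = 0.0697) and the call was also lost without WT 30 °C library 1 or 3 (adjusted p up to 0.0914), 6 of 22 alternatives in all; the AdC3KO value was 0.97 without AdC3KO 4 °C library 1. Without both libraries that stood apart Fcgr1 was called in both genotypes, at 0.97 in AdC3KO (adjusted p = 0.0194) and 1.11 in WT (adjusted p = 0.00947). The adapters Fcer1g and Tyrobp, which carry the activation motif for such receptors, passed no test: Fcer1g was at 0.03 in AdC3KO and 0.90 in WT, and Tyrobp at 0.25 in AdC3KO and 0.92 in WT. DESeq2 called both adapters in WT.

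C1qa, C1qb and C1qc encode the chains of C1q, the recognition unit of the classical complement pathway, which tissue macrophages make. C1qb was at 54.4, 37.97, 37.7 and 32.7 CPM in AdC3KO at 4 °C and 24.8, 28.8 and 17.3 CPM at 30 °C. WT libraries held 44.6, 40.8, 41.9 and 90.5 CPM at 4 °C and 24.4, 24.3 and 16.4 CPM at 30 °C. C1qa was at 57.7, 29.6, 32.5 and 30.8 CPM in AdC3KO at 4 °C and 29.6, 35.3 and 20.8 CPM at 30 °C, and at 33.5, 34.9, 35.1 and 90.1 CPM in WT at 4 °C and 26.05, 25.7 and 19.4 CPM at 30 °C. The WT groups were apart for both genes, and the AdC3KO groups were apart for C1qb and overlapped for C1qa. C1qc was at 36.5, 23.5, 25.3 and 22.8 CPM in AdC3KO at 4 °C and 18.9, 24.4 and 15.9 CPM at 30 °C, and at 25.99, 27.3, 27.8 and 68.8 CPM in WT at 4 °C and 19.4, 19.8 and 16.01 CPM at 30 °C. As for the other chains, WT 4 °C library 4 was more than 2-fold above its group. C1qb rose by 0.78 ± 0.31 in AdC3KO (adjusted p = 0.0402) and 1.33 ± 0.31 in WT (adjusted p = 0.00257). C1qa rose in WT by 1.03 ± 0.39 (adjusted p = 0.037) and C1qc by 1.03 ± 0.33 (adjusted p = 0.0177); in AdC3KO C1qa was at 0.40 ± 0.38 (adjusted p = 0.385) and C1qc at 0.45 ± 0.33 (adjusted p = 0.248). The AdC3KO call of C1qb was lost in 7 of 23 alternatives, without AdC3KO 30 °C library 1 or 3 or AdC3KO 4 °C library 1 among them (adjusted p 0.0768 to 0.15, log2 fold change 0.60 to 0.82). In WT, the call of C1qa was lost in 9 of 23 alternatives, among them the removal of any WT 30 °C library or of WT 4 °C library 4 (adjusted p 0.0698 to 0.12), and that of C1qc in 6, among them the removal of WT 30 °C library 3 (adjusted p = 0.066). Without both libraries that stood apart all 3 were called in WT, at 0.55 for C1qa, 0.98 for C1qb and 0.57 for C1qc.

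Among genes of lipid-associated macrophages, Gpnmb, a lysosomal membrane glycoprotein of lipid-laden macrophages, had the second largest WT estimate of the 38. It was at 7.61, 6.37, 5.03 and 5.31 CPM in AdC3KO at 4 °C and 4.68, 2.49 and 1.403 CPM at 30 °C. WT libraries held 6.601, 20.3, 7.597 and 11.2 CPM at 4 °C and 1.698, 0.918 and 0.985 CPM at 30 °C. The temperatures were apart in both genotypes, and in the cold WT 4 °C library 2 was the highest. Gpnmb rose by 1.08 ± 0.43 in AdC3KO (adjusted p = 0.0382) and 3.25 ± 0.48 in WT (adjusted p = 3.86e-05), or 2.12-fold in AdC3KO and 9.51-fold in WT. The AdC3KO call was lost in 8 of 23 alternatives, among them the removal of AdC3KO 30 °C library 2 or 3 or AdC3KO 4 °C library 1 or 2 (adjusted p 0.0619 to 0.147, log2 fold change 0.76 to 1.08). Cd9, a tetraspanin that many other cells of fat also make, was at 9.73, 8.697, 10.5 and 8.13 CPM in AdC3KO at 4 °C and 5.69, 5.58 and 6.13 CPM at 30 °C, and at 13.5, 8.86, 6.79 and 11.2 CPM in WT at 4 °C and 7.21, 7.22 and 5.38 CPM at 30 °C. The AdC3KO groups were apart and the WT groups overlapped. Cd9 rose by 0.67 ± 0.20 in AdC3KO (adjusted p = 0.00757) and 0.61 ± 0.20 in WT (adjusted p = 0.0141). Its WT call was lost without WT 30 °C library 3 or WT 4 °C library 1 (adjusted p 0.052 to 0.0767, log2 fold change 0.42 to 0.48), and both calls were lost with upper-quartile scaling and without the libraries with muscle transcripts. Trem2, a lipid receptor that signals through Tyrobp, was low in every library, at most 1.52 CPM, and was at -0.72 ± 0.65 in AdC3KO (adjusted p = 0.345) and -0.22 ± 0.66 in WT (adjusted p = 0.787). Its WT value was 0.44 without WT 30 °C library 1 and -0.86 without WT 4 °C library 2, and neither passed.

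Cd14, a co-receptor for bacterial lipopolysaccharide, was at 13.8, 13.6, 26.8 and 8.18 CPM in AdC3KO at 4 °C and 7.72, 7.51 and 4.84 CPM at 30 °C. WT libraries held 34.9, 13.9, 17.04 and 16.5 CPM at 4 °C and 5.18, 5.55 and 10.2 CPM at 30 °C. The temperatures did not overlap within either genotype, although AdC3KO 4 °C library 4 (8.18 CPM) was below WT 30 °C library 3 (10.2 CPM). The highest library was WT 4 °C library 1, not library 4. Cd14 rose by 1.22 ± 0.44 in AdC3KO (adjusted p = 0.0288) and 1.56 ± 0.44 in WT (adjusted p = 0.00886). The AdC3KO call was lost in 7 of 23 alternatives, among them the removal of any AdC3KO 30 °C library or of AdC3KO 4 °C library 3 (adjusted p 0.0516 to 0.105, log2 fold change 0.84 to 1.34). Cd80, a co-stimulatory ligand for T cells, was at 0.4102, 0.689, 0.684 and 0.421 CPM in AdC3KO at 4 °C and 0.491, 0.335 and 0.332 CPM at 30 °C, and at 1.41, 0.786, 0.807 and 1.02 CPM in WT at 4 °C and 0.414, 0.559 and 0.0704 CPM at 30 °C. It was low throughout, and the WT cold libraries lay above all the others. Cd80 rose in WT by 1.53 ± 0.50 (adjusted p = 0.0149) and was at 0.49 ± 0.50 in AdC3KO (adjusted p = 0.404); the WT call was lost without WT 30 °C library 3 (log2 fold change 1.04, adjusted p = 0.0604). The related ligand Cd86 passed no test, at 0.17 in AdC3KO and 1.10 in WT, and the WT value was 0.23 without WT 4 °C library 4.

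Of 5 chemokines and chemokine receptors, 1 was called higher and 1 lower in each genotype, where 31% of all tested genes were higher and 32.1% lower in AdC3KO, and 30.6% higher and 30.8% lower in WT. Cx3cr1, the receptor for the membrane-bound chemokine Cx3cl1 on monocytes and some tissue macrophages, was the only member called lower with all libraries. It was at 0.597, 0.344, 0.0489 and 0.126 CPM in AdC3KO at 4 °C and 3.99, 5.88 and 2.81 CPM at 30 °C. WT libraries held 0, 0.419, 0.1899 and 1.06 CPM at 4 °C and 3.69, 3.11 and 2.71 CPM at 30 °C. These levels rest on few reads: the AdC3KO libraries had 16, 8, 1 and 3 counts at 4 °C and 122, 158 and 76 at 30 °C, and the WT libraries 0, 8, 4 and 26 at 4 °C and 89, 78 and 77 at 30 °C. Every cold library was below every 30 °C library, and the highest cold libraries were the pair that stood apart. Cx3cr1 was lower, at a log2 fold change of -3.84 ± 0.70 in AdC3KO (adjusted p = 0.000252) and -2.83 ± 0.68 in WT (adjusted p = 0.00228). The AdC3KO value was -4.51 without AdC3KO 4 °C library 1, the WT value was -3.88 without WT 4 °C library 4, and the AdC3KO call was lost without the libraries with muscle transcripts (-2.95, adjusted p = 0.0598). Its ligand Cx3cl1 was also lower in the cold, at -0.58 in AdC3KO (adjusted p = 0.00516) and -0.69 in WT (adjusted p = 0.00163).

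Cxcl1, a neutrophil attractant that many cell types make, was at 1.42, 1.64, 1.52 and 2.11 CPM in AdC3KO at 4 °C and 0.0981, 0.186 and 0.369 CPM at 30 °C. In WT it was at 7.72, 2.62, 2.99 and 0.815 CPM at 4 °C and 0.704, 0.279 and 0.0704 CPM at 30 °C. The temperatures were apart in both genotypes, and WT 4 °C library 1 was the highest while library 4 was the lowest of its group. Cxcl1 rose by 2.93 ± 0.77 in AdC3KO (adjusted p = 0.00398) and 3.33 ± 0.74 in WT (adjusted p = 0.0012). The AdC3KO value was 3.53 without AdC3KO 30 °C library 3, and 2.20 and not called without the libraries with muscle transcripts (adjusted p = 0.177). In WT it was 4.32 without WT 30 °C library 1 and 2.61 without WT 4 °C library 1, and stayed called. Of 6 neutrophil markers, Ly6g had at most 0.0489 CPM in any library, 3 were tested, and S100a8 was called lower in WT (-1.38) and was at 0.52 in AdC3KO (adjusted p = 0.439); without the pair that stood apart it was not called in WT (adjusted p = 0.0593), while Csf3r was called lower in AdC3KO (-1.43) and S100a9 in WT (-1.97). With all libraries DESeq2 called 2 of the markers lower in WT, S100a9 and Cxcr2, and not S100a8. These names were chosen after their values were seen. Ccr2, the receptor that brings monocytes into tissue, was at 19.02, 5.21, 3.52 and 5.0998 CPM in AdC3KO at 4 °C and 11.6, 8.405 and 8.67 CPM at 30 °C. It was at -0.21 ± 0.63 in AdC3KO (adjusted p = 0.79) and 0.48 ± 0.64 in WT (adjusted p = 0.542), and at -1.02 and called lower in AdC3KO without the pair that stood apart (adjusted p = 0.000264), where WT was at -0.31 (adjusted p = 0.163). When only AdC3KO 4 °C library 1 was left out, Ccr2 was at -1.02 in AdC3KO and not called (adjusted p = 0.0956). Its ligand Ccl2 was at -0.26 in AdC3KO and -0.03 in WT. Ccl8 was at 1.21 in AdC3KO and 1.66 in WT with all libraries, and at -0.40 without AdC3KO 4 °C library 1 and -0.32 without WT 4 °C library 4. Neither Ccl2 nor Ccl8 passed the test.

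H2-Eb1, an MHC class II beta chain, was the only one of the 4 class II members called in the cold. It was at 177, 88.4, 81.3 and 92.1 CPM in AdC3KO at 4 °C and 76.9, 67.98 and 58.1 CPM at 30 °C. WT libraries held 84.5, 103, 113 and 298 CPM at 4 °C and 78.9, 69.6 and 57.4 CPM at 30 °C. The temperatures did not overlap in either genotype. H2-Eb1 rose in WT by 1.13 ± 0.44 (adjusted p = 0.0428) and was at 0.70 ± 0.43 in AdC3KO (adjusted p = 0.18). The WT call was lost in 15 of 23 alternatives, 9 of which left out 1 library: any of the 6 at 30 °C, WT 4 °C library 4 or AdC3KO 4 °C library 2 or 4 (adjusted p 0.0501 to 0.127, log2 fold change 0.56 to 1.24). Without the pair H2-Eb1 was called in both genotypes, at 0.40 in AdC3KO (adjusted p = 0.0205) and 0.56 in WT (adjusted p = 0.00254). Cd74 was at 0.40 in AdC3KO and 0.94 in WT, H2-Aa at 0.38 in AdC3KO and 0.99 in WT, and H2-Ab1 at 0.31 in AdC3KO and 1.08 in WT. Without the pair Cd74 was at -0.03 in AdC3KO and 0.24 in WT, and H2-Ab1 at -0.15 in AdC3KO and 0.28 in WT. H2-Aa was then at -0.05 in AdC3KO and was called higher in WT, at 0.28 (adjusted p = 0.0433).

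**Figure D4:**
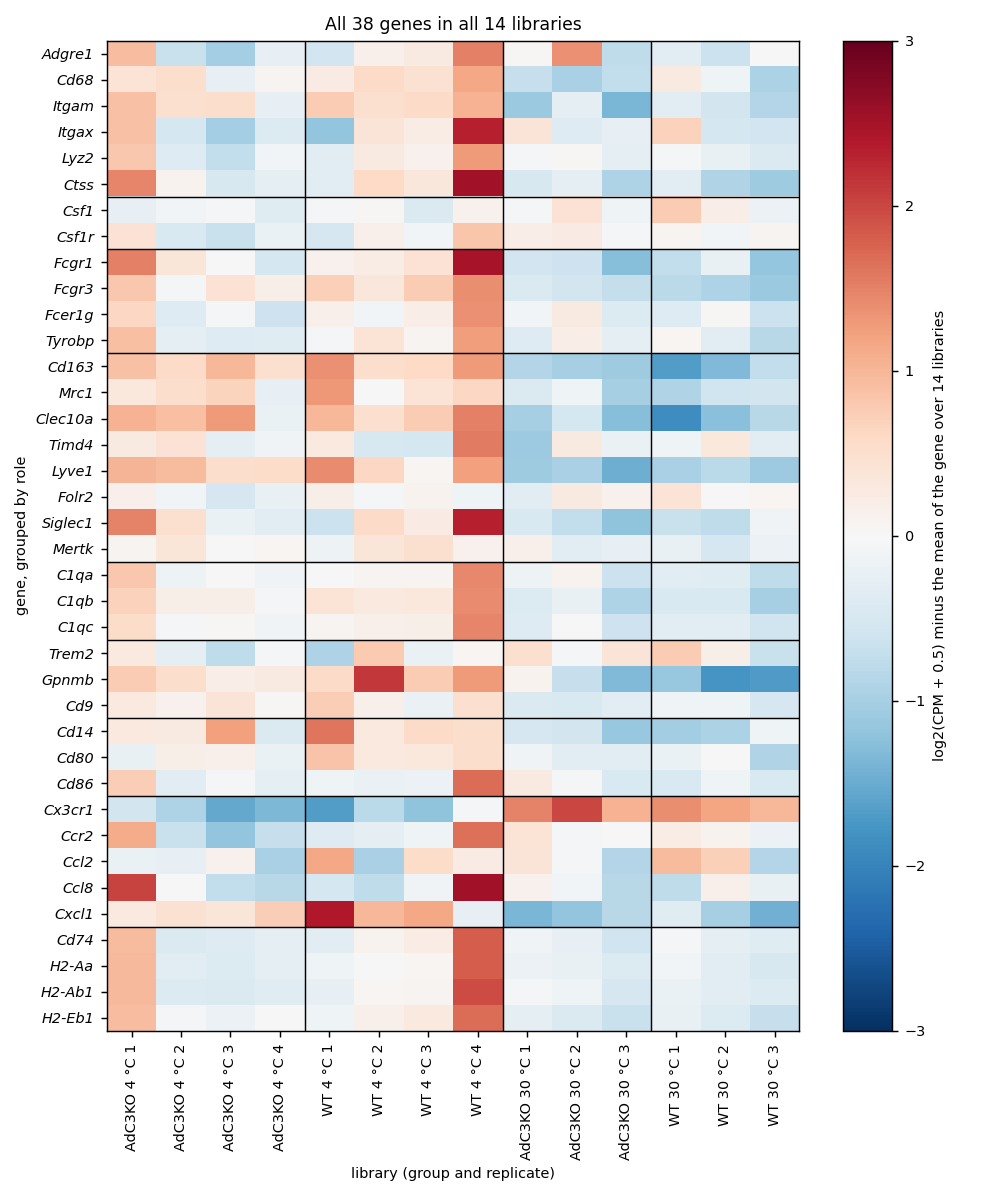
Level of each of the 38 genes (rows, grouped by role) in each of the 14 libraries (columns), as log2(CPM + 0.5) minus the gene's mean over libraries; red is above and blue below that mean. The columns AdC3KO 4 °C 1 and WT 4 °C 4 are red for most genes, and Cx3cr1 is blue in the cold columns.

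Of 13 other genes of the MHC class II pathway, 11 were tested, with 1 higher and 1 lower in AdC3KO and 2 higher and 2 lower in WT. Among all tested genes 31% were higher and 32.1% lower in AdC3KO, and 30.6% higher and 30.8% lower in WT. Rfx5, a subunit of the factor that binds the X box, was lower in both (-1.39 in AdC3KO and -1.32 in WT), and its partner Rfxap was lower in WT (-0.60). Rfxank, another subunit, was higher in WT (0.35) and at -0.29 in AdC3KO, and Ctsl, a lysosomal protease that many cell types make, was higher in both (1.14 in AdC3KO and 1.13 in WT). Without the pair that stood apart 1 was higher and 4 lower in each genotype. Of the 8 MHC class I pathway genes, Tap2 and Tapbp were lower in AdC3KO (-1.66 and -0.92) and Tap2 was lower in WT (-1.14), and without the pair 6 were lower in AdC3KO and 7 in WT. Without the pair, 32.1% of all tested genes were higher and 32.2% lower in AdC3KO, and 30.6% and 31.7% in WT.

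A further 46 macrophage genes, of which 44 were tested, were read beside them: 11 were higher and 1 lower in AdC3KO, and 22 were higher and 1 lower in WT, with a median of 0.35 in AdC3KO and 0.93 in WT. Among all tested genes the shares in AdC3KO were 31% higher and 32.1% lower, at a median of -0.06, and those in WT 30.6% higher and 30.8% lower, at -0.03. Ms4a6c rose by 2.31 in AdC3KO and 2.88 in WT, and Lgals3, the lectin galectin-3, by 1.67 in AdC3KO and 2.08 in WT. The nucleic acid sensor Tlr13 rose by 1.37 in AdC3KO and 2.74 in WT. Fcgr4, another activating Fc receptor, rose by 3.71 in WT and was at 1.67 in AdC3KO (adjusted p = 0.0699). Hpgds, a prostaglandin D2 synthase, was the only one lower, at -2.33 in AdC3KO and -0.71 in WT. Without the pair that stood apart 15 were higher and 11 lower in AdC3KO (32.1% and 32.2% of all tested genes). In WT 23 were then higher and 4 lower (30.6% and 31.7%).

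Of 29 other chemokines and cytokines, 27 were tested, with 5 higher and 6 lower in AdC3KO and 7 higher and 5 lower in WT. For this and the next lists, 31% of all tested genes were higher and 32.1% lower in AdC3KO. In WT 30.6% of all tested genes were higher and 30.8% lower. Ccl6 was at 70.6, 58.3, 73.02 and 42.6 CPM in AdC3KO at 4 °C and 11.3, 10.4 and 7.01 CPM at 30 °C, and at 101, 59.5, 67.4 and 106 CPM in WT at 4 °C and 8.95, 12.3 and 7.04 CPM at 30 °C, with no overlap. It rose by 2.67 in AdC3KO and 3.15 in WT, and the related Ccl9 by 2.96 in AdC3KO and 3.28 in WT. Cxcl13, a B cell attractant, rose by 3.42 in AdC3KO and 3.02 in WT. Cxcl2, a neutrophil attractant, rose in WT (2.82) and was at 2.13 in AdC3KO (adjusted p = 0.0945). The inflammatory cytokine Tnf was lower in both (-2.51 in AdC3KO and -2.62 in WT) and was below 1 CPM in every library. Among 11 genes used as markers of macrophage polarization, 9 were tested, with 3 higher and 2 lower in AdC3KO and 4 higher and 2 lower in WT: the transcription factors Irf4 (4.26 in AdC3KO and 4.35 in WT) and Klf4 (2.83 in AdC3KO and 2.55 in WT) and the receptor Il4ra (2.06 in AdC3KO and 1.86 in WT) rose, and the nitric oxide synthase Nos2 was lower (-2.91 in AdC3KO and -2.93 in WT). Irf4 is also made by brown adipocytes. Of 10 genes that NF-kappa B induces or that damp it, 5 were higher and 0 lower in AdC3KO and 4 were higher and 1 lower in WT; Nfkbia rose by 1.48 in AdC3KO and 1.31 in WT, Nfkbiz by 1.08 in AdC3KO and 0.97 in WT, Tnfaip3 by 1.04 in AdC3KO and 0.89 in WT, and Nfkbie was lower in WT (-1.28).

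Markers of other cell types were read in the same libraries. Among all tested genes, 31% were called higher and 32.1% lower in the cold in AdC3KO, and 30.6% higher and 30.8% lower in WT. Without the pair that stood apart the shares were 32.1% and 32.2% in AdC3KO and 30.6% and 31.7% in WT. B cell markers were lower in the cold, 4 of 4 in AdC3KO and 3 of 4 in WT, with Cd79a at -2.51 in AdC3KO and -2.95 in WT; their sum was 0.440 to 0.927 CPM in AdC3KO and 0.530 to 1.14 CPM in WT at 4 °C, and 3.40 to 4.17 CPM in AdC3KO and 2.87 to 4.64 CPM in WT at 30 °C. For the T cell, natural killer cell, dendritic cell and interferon lists edgeR made 0 calls in either genotype with all libraries. At an unadjusted p under 0.05 they held 1 natural killer cell gene in AdC3KO and 1 interferon gene in WT, and DESeq2 called 4 interferon genes and 1 dendritic cell gene higher in WT. Without the pair that stood apart, edgeR called 2 T cell, 2 natural killer cell, 1 dendritic cell and 1 interferon gene lower and 2 interferon genes higher in AdC3KO, and 3 natural killer cell, 1 dendritic cell and 2 interferon genes lower in WT. The dendritic cell sum was 27.6 to 36.3 CPM in AdC3KO and 22.8 to 48.6 CPM in WT at 4 °C, and 28.8 to 34.3 CPM in AdC3KO and 30.9 to 34.0 CPM in WT at 30 °C. Endothelial markers had 4 of 6 higher and 2 lower in each genotype, and their sum was 1223 to 1519 CPM in AdC3KO and 1149 to 1299 CPM in WT at 4 °C, against 542 to 606 CPM in AdC3KO and 530 to 714 CPM in WT at 30 °C. Mast cell markers had 1 higher and 1 lower in WT and 0 called in AdC3KO, and fibroblast markers 1 lower in AdC3KO and 1 higher and 1 lower in WT. Eosinophil markers had 0 of 4 tested, with a sum of at most 0.734 CPM. Brown adipocyte markers had 3 of 6 higher and 1 lower in AdC3KO and 3 higher and 2 lower in WT, and 0 of 7 skeletal muscle markers were called by edgeR or DESeq2, or had an unadjusted p under 0.05, in either genotype. The part of any of these cell types in the response of the 38 genes was not tested.

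The cold response of AdC3KO was compared with that of WT by the interaction term. No member was called by edgeR or DESeq2 (0% of all tested genes in either direction), 2 members had an unadjusted p under 0.05, and the smallest adjusted p was 1. Those 2 were Gpnmb, at -2.17 ± 0.61 (unadjusted p = 0.00339), and Fcgr3, at -0.91 ± 0.34 (unadjusted p = 0.0163). The estimate was negative, meaning a smaller response in AdC3KO, for 33 of 38 members and for 54.2% of all tested genes, and for 31 of 38 members without the pair that stood apart. The 7 genes called in WT alone are therefore not shown to differ between genotypes in their response.

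Between genotypes no member differed by the test at either temperature. At 30 °C, edgeR called 0 of 38 (0.0376% of all tested genes were called higher and 0.00627% lower), DESeq2 called 0, and 1 had an unadjusted p under 0.05, Gpnmb at 1.26 ± 0.48 (unadjusted p = 0.021, adjusted p = 1). Estimates were negative for 15 and positive for 23, with a median of 0.10, against 0.01 for all tested genes. Fcgr3 was the only member whose AdC3KO libraries all lay above the WT libraries at 30 °C (4.01% of all tested genes did), at 0.41 ± 0.26 (adjusted p = 1).

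At 4 °C all 38 estimates were negative, meaning a lower level in AdC3KO than in WT, where 51.4% of all tested genes were negative. The median was -0.47, against -0.01 for all tested genes, and the range was from -1.22 for Itgax to -0.09 for Mertk. The Itgax value was -0.05 without WT 4 °C library 4 and -1.87 without AdC3KO 4 °C library 1. The direction of other members also rested on WT 4 °C library 4. With that library alone left out, mean CPM was higher in AdC3KO than in WT for each class II member. H2-Aa was at 81.0 against 74.0, H2-Ab1 at 69.8 against 64.3, Cd74 at 111 against 105 and H2-Eb1 at 110 against 100.1. Other members stayed lower in AdC3KO, among them Cd163 (46.9 against 51.5) and Gpnmb (6.08 against 11.5). None passed the test: edgeR called 0 of 38 (0.0439% of all tested genes were called higher and 0.00627% lower), the smallest adjusted p was 0.963, and DESeq2 called 0. An unadjusted p under 0.05 was found for 2, Gpnmb at -0.91 ± 0.38 (unadjusted p = 0.0309) and Fcgr3 at -0.50 ± 0.21 (unadjusted p = 0.0341). Cd80 was the only member whose AdC3KO libraries all lay below the WT libraries (0.959% of all tested genes did), at -0.87 ± 0.44 (adjusted p = 0.963). Without the pair that stood apart 36 of 38 estimates were negative, all but Timd4 (0.48) and Clec10a (0.01). The median was -0.32, no member was called (0.0445% of 15731 tested genes were called higher and 0.0127% lower), and the smallest adjusted p was 0.694, for Ccr2 at -0.63. The libraries did not overlap, with AdC3KO below WT, for 11 members in that comparison of 3 libraries each, where 4.16% of all tested genes did so; among them were all 3 C1q chains, Gpnmb, Ccr2, H2-Aa and H2-Ab1. AdC3KO 4 °C library 1 was left out for its high levels of these genes. That choice by itself makes AdC3KO libraries below WT more likely for them than for all tested genes. The count of 11 therefore cannot be weighed against the 4.16%, and nothing about genotype is drawn from it. The 38 genes share libraries and cell types, so their common direction does not count as 38 separate observations.

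**Figure D5:**
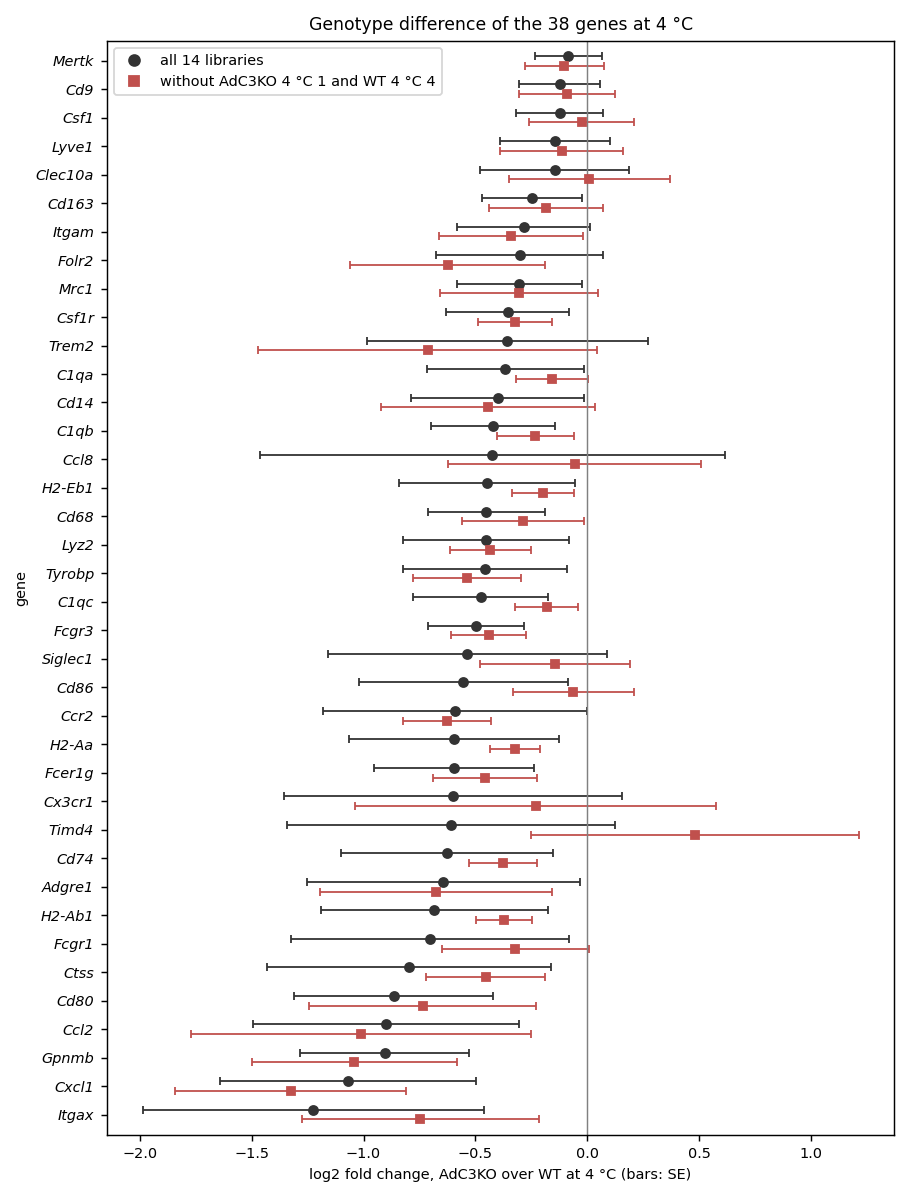
Log2 fold change of AdC3KO over WT at 4 °C (x axis) of each of the 38 genes (y axis), with bars of 1 SE, from all 14 libraries (circles) and without AdC3KO 4 °C library 1 and WT 4 °C library 4 (squares). All circles lie left of 0, from -1.22 for Itgax to -0.09 for Mertk, and 36 of 38 squares do; no gene passed the test in either fit.

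The same direction was seen in the further macrophage list, with 41 of 44 estimates negative at 4 °C and a median of -0.56 (-0.30 without the pair that stood apart), and 9 of 44 negative at 30 °C. Of the 14 interferon response genes 13 were negative at 4 °C, with a median of -1.09, which was 0.17 without the pair. The median of the 38 genes was -0.47 with all libraries and -0.32 without the pair. The pair was identified by its levels of immune genes, so how these medians move without it follows in part from that choice. The natural killer cell list was negative at 4 °C for 4 of 4 genes, with a median of -1.38 (-0.85 without the pair), the dendritic cell list for 6 of 6, at -0.87 (-0.31), the T cell list for 5 of 6, at -0.67 (-0.32), and the list of other chemokines and cytokines for 22 of 27, at -0.47 (-0.25). The 8 MHC class I genes were all negative, at -0.61 (-0.05). Endothelial markers were negative for 1 of 6 at 4 °C, with a median of 0.12. By edgeR 0 of these genes were called between genotypes; at 4 °C, 3 of the 44 macrophage genes had an unadjusted p under 0.05, as did 3 of the 27 chemokines and cytokines, and DESeq2 called 1 of the macrophage genes lower.

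Levels between genes can be compared only per length. In CPM per kb of exon, the most abundant members at 4 °C were Cd74, at 66.1 in AdC3KO and 102 in WT, Lyz2, at 60.9 in AdC3KO and 83.3 in WT, and H2-Eb1, at 56.4 in AdC3KO and 76.9 in WT. Cd163 was at 8.596 in AdC3KO and 10.2 in WT at 4 °C and at 2.54 in AdC3KO and 2.16 in WT at 30 °C. The lowest at 4 °C were Cx3cr1, at 0.06195 in AdC3KO and 0.0926 in WT, and Trem2, at 0.113 in AdC3KO and 0.146 in WT. Means of all libraries are used here, and exon lengths are those of the union of annotated exons.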

How the data were processed

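RNA-seq libraries from brown adipose tissue (14 samples in 4 groups) were analysed from 1 table of whole-number counts per gene that the authors deposited. Per the series' design text and the submitters' processing notes, which the labels carry, reads were checked with FastQC, trimmed with Trimmomatic, aligned to GRCm38 with STAR and counted with HTSeq; their versions, the annotation release and the strand setting were not stated. The 5 summary lines of the count table name no gene (3 are 0 throughout) and were left out.

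Counts were scaled by TMM and tested by edgeR 4.0.16 (quasi-likelihood F-test; limma 3.58.1, R 4.3.3) in 1 fit over all 14 libraries, with a mean per group. The filter on low counts was filterByExpr with a minimum count of 10, which kept 15949 of 55471 genes. Adjustment over those genes was by the Benjamini-Hochberg procedure, and a call means an adjusted p under 0.05. Every adjusted p is from this fit unless another tool or setting is named. The SE of a log2 fold change is its size divided by the square root of F. Alternatives were DESeq2 1.42.0, other scalings and filters, a replicate block and fits without libraries. Tables and figures used Python 3.11.15 and matplotlib 3.10.9. No pair of libraries agreed within sampling noise (chi-square per degree of freedom of 16.9 or more).

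The members and lists were chosen with earlier results of these data known. Values per library are given for Adgre1, Cd68 and, in each role, up to 4 called members with the smallest p (where none was called, the whole role when it has 2 genes). In other lists up to 4 called genes with the largest log2 fold change in each genotype are named. One gene that this rule names is not reported here. Genes named besides these (the other class II chains, Siglec1, Ccr2, Il34, Cx3cl1, Fcgr2b and those given by their estimate alone) were chosen after their values were seen. Replicate numbers did not pair libraries: over 13 pairs the correlation of deviations from group means was -0.39 to 0.083.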

Additional observations from a re-analysis of the deposited data

Results flagged for a closer look

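Each gene was screened in each group of 4 libraries for a highest or lowest library that lies farther from the next than Dixon's 95% critical value for 4 values allows. Of 76 such groups screened, 22 exceeded it, over 15 genes, and in all but 1 the library was AdC3KO 4 °C library 1 or WT 4 °C library 4. The genes share the same libraries, so these flags are not separate trials. The count therefore cannot be set against the rate of about 1 in 20 for separate, normally distributed values. The same screen was not run over all genes.

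In AdC3KO 4 °C library 1, 8 genes lay far above the other AdC3KO libraries in the cold. These were the class II genes Cd74 (201 CPM), H2-Eb1 (177 CPM), H2-Aa (147 CPM) and H2-Ab1 (129.96 CPM), and C1qa (57.7 CPM), Ccr2 (19.02 CPM), Tyrobp (12.6 CPM) and Ccl8 (5.89 CPM).

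In WT 4 °C library 4, 13 genes lay far above the other WT libraries in the cold. The class II genes were Cd74 (369.7 CPM), H2-Eb1 (298 CPM), H2-Aa (267 CPM) and H2-Ab1 (255 CPM). The C1q chains were C1qb (90.5 CPM), C1qa (90.1 CPM) and C1qc (68.8 CPM). The others were Ctss (123 CPM), Ccr2 (28.1 CPM), Fcgr1 (19.9 CPM), Fcer1g (19.5 CPM), Ccl8 (8.44 CPM) and Cd86 (8.32 CPM).

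Cd14 was highest in WT 4 °C library 1, at 34.9 CPM.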

How the results depend on the processing

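With all libraries, 12 members were called higher and 1 lower in the cold in AdC3KO, and 19 higher and 1 lower in WT. Upper-quartile scaling gave 7 higher and 2 lower in AdC3KO and 12 higher and 2 lower in WT. A filter at 5 CPM in 3 libraries gave 0 lower in both genotypes, since Cx3cr1 was then not tested. Of the 10549 genes tested under that filter, 36.5% were lower in AdC3KO and 35.6% in WT. Without the libraries with muscle transcripts the counts were 8 higher and 0 lower in AdC3KO and 11 higher and 2 lower in WT. Without the pair that stood apart 3 were lower in AdC3KO. Leaving out 1 library at a time gave 8 to 16 higher in AdC3KO, and 11 to 22 higher and 1 to 2 lower in WT, with 11 and 2 when WT 30 °C library 3 was left out. In those runs 27.6% to 32.6% of all tested genes were higher in AdC3KO. In WT 27.5% to 30.2% of them were higher and 26.9% to 31.4% lower. The fit with a replicate block called 12 higher and 1 lower in AdC3KO (29.9% and 31.5% of all tested genes). In WT it called 14 higher and 1 lower (29.4% and 29.8%), with 0 members called between genotypes. No comparison between genotypes and no interaction gained a call in any alternative run; the interaction has no value where only the compared groups were fitted. The calls of 6 of 13 genes in AdC3KO and 11 of 20 in WT held in every alternative run that tested the gene, and no called value changed sign. Among these held genes were Itgam, in both genotypes, and Cx3cr1 and Cxcl1, in WT only. Each of them was tested in 22 alternatives, and most other genes in 23. The cause of these changes was not tested. With 3 or 4 libraries per group, Cx3cr1, Cxcl1, Cd80 and Trem2 rest on few reads.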
